A study of Mus musculus with 30 samples.

Results

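Subcutaneous fat of mice with growth hormone receptors that cannot signal through STAT5 was set against fat of mice whose receptors can. Membership followed the labels. The 9 fat arrays labelled 391, Box1 or KO were compared with the 6 labelled 569 or WT, which makes 15 of the 30 arrays of the series, the other 15 being liver. The receptor of the 391 mice ends at residue 391, that of the Box1 mice carries a mutation in Box1, and the KO mice have none. The receptor of the 569 mice ends at residue 569, and the WT mice have the wild-type receptor. Each genotype has 3 fat arrays. All mice were males killed at 4 months after a night without food, so the controls were starved too. The mutations are in the germ line and reach every tissue, so fat of these mice also lives under their altered blood hormones. Nothing in the labels ties the arrays of a genotype to separate animals, so the p-values cover only the variation seen between arrays, and that may be technical.

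Growth hormone binds a receptor that has no kinase of its own and works through JAK2, which docks at Box1 next to the membrane. Active JAK2 phosphorylates tyrosines in the receptor's tail, where the transcription factor STAT5 docks before it enters the nucleus and switches on genes such as Igf1, Cish and Socs2. The 391 truncation removes the STAT5 docking tyrosines, the Box1 mutation and the knockout remove JAK2 signalling as well, and the 569 truncation removes only some of the docking tyrosines. In fat, growth hormone is known for promoting lipolysis and restraining fat storage. "STAT5-deficient" (391, Box1, KO) and "STAT5-competent" (569, WT) are used here as names for the genotypes, since STAT5 activity itself was not measured in these files.

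Values are the deposited ratios, in which a probe is set against its median in the 15 fat arrays, and differences are fitted log2 differences of STAT5-deficient minus STAT5-competent arrays. A ratio holds no absolute level, so the labelled tissue could be checked only by how marker genes varied. Across 23 mature adipocyte genes the mean log2 ratio lay between −0.05 and 0.34 in the 9 STAT5-deficient arrays and between −0.4 and 0.63 in the STAT5-competent arrays other than 569 replicate 3. The array 569 replicate 3 stood apart at −2.29. In that array 12% of probes lay beyond 2-fold from the median, against 0.337% to 1.72% in the other 14. Fits were therefore made, with all 15 arrays and with the 14 that remain without 569 replicate 3.

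Other tissues' markers also varied between arrays. The mean of 24 skeletal muscle genes was 3.88 in Box1 replicate 3, 2.36 in KO replicate 2, 2.98 in 569 replicate 1 and 4.21 in 569 replicate 3, against −1.85 to 1.09 in the other 11 arrays. The mean of 11 hepatocyte genes was 3.39 in Box1 replicate 2, 2.15 in WT replicate 2 and 1.01 in WT replicate 3, and at most 0.37 elsewhere. The mean of 20 lymphocyte genes lay between −2.28 and −1.83 in 3 of 9 STAT5-deficient and 4 of 6 STAT5-competent arrays, and between 0.01 and 0.81 in the others. None of these marker genes was called in either fit. In bulk tissue fewer cells of a type and less RNA per cell cannot be told apart.

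**Figure D1:**
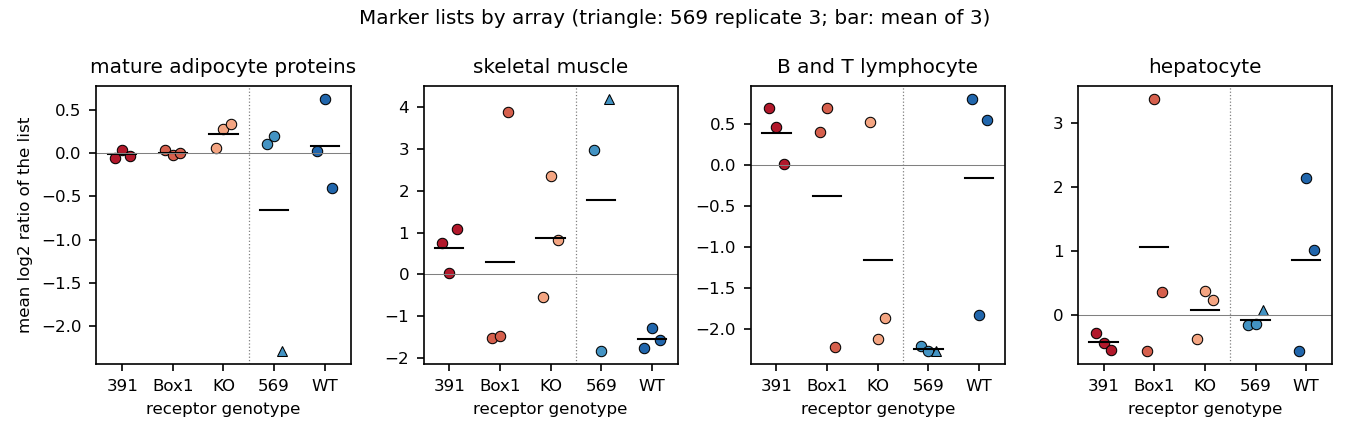
Mean log2 ratio to the fat median (vertical axis) of 4 marker lists in each of the 15 fat arrays, by receptor genotype, with a bar at the mean of 3 arrays and a triangle for 569 replicate 3. That triangle sits at −2.29 for mature adipocyte genes and at 4.21 for skeletal muscle genes, and muscle, lymphocyte and hepatocyte means spread widely within genotypes.

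The slides add a limit that holds for all class differences. Per the labels the 569 and WT arrays share a slide, the 391 and KO arrays share another, and the Box1 arrays lie on a further one. Receptor class and slide therefore cannot be told apart, and only 569 with WT, and 391 with KO, share one.

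With all 15 arrays, 9 of 46643 probes (0.0193%) differed between the classes at an adjusted p under 0.05 in limma, 5 higher and 4 lower in the STAT5-deficient arrays. Without 569 replicate 3 the number was 121 (0.259%), 37 higher and 84 lower, and it included all 9. Of the 19406 named genes, each represented by its most variable probe, 8 (0.0412%) were called with 15 arrays. With 14 arrays 54 genes (0.278%) were lower and 20 (0.103%) higher. The median difference over all genes was 0.013 with 14 arrays and 0.026 with 15, against which the values below can be read. Ratios of the classes did not overlap for 47 probes (0.101%) with 15 arrays and for 129 (0.277%) with 14, of which 91 were lower and 38 higher.

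These counts moved with single arrays. The count of 9 became 30 without 391 replicate 2, 2 without 391 replicate 3 or WT replicate 1, 3 without Box1 replicate 3 or 569 replicate 1, 4 without any 1 of the KO arrays, and 5 without Box1 replicate 1 or WT replicate 3. Quantile normalization gave 32 (24 higher, 8 lower). The count of 121 became 252 without 391 replicate 2, 51 without 391 replicate 3, 72, 76 and 79 without KO replicates 1, 2 and 3, 23 without 569 replicate 1, 52 without 569 replicate 2, and 55 without WT replicate 1. Igf1, Igfals, Sctr, Trp63 and Slc1a3 were lower in the 14 arrays and kept their call under every alternative tried on them.

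Igf1, the growth factor that many tissues make in response to growth hormone, was called with 14 arrays and not with 15. Its ratios were 1.04, 0.91 and 1.02 in 391 fat, 0.63, 0.65 and 1 in Box1 fat and 0.85, 0.88 and 0.88 in KO fat. They were 4.46, 4.02 and 0.34 in 569 fat and 1.76, 3.08 and 2.02 in WT fat. All STAT5-deficient arrays thus lay below every WT array and 2 of the 3 arrays labelled 569, and the lowest value of all belonged to 569 replicate 3. Without that array the classes did not overlap and Igf1 fell by 1.83 ± 0.14 (SE), or 3.56-fold (adjusted p = 0.00028 in limma). With it the difference was −1.23 ± 0.47 (adjusted p = 0.45). A second Igf1 probe behaved alike, at −1.81 ± 0.15 with 14 arrays (adjusted p = 0.00055) and −1.29 with 15 (adjusted p = 0.37). The mean of mature adipocyte genes in 569 replicate 3 was also low, as given above; its part in the Igf1 value was not tested.

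Igfals, which encodes the acid-labile subunit that holds IGF1 in the circulation, was called in both fits. Its ratios were 1.31, 1 and 0.84 in 391 fat, 0.54, 0.58 and 0.86 in Box1 fat and 0.66, 0.66 and 0.69 in KO fat. They were 2.69, 2.59 and 1.67 in 569 fat and 2.31, 4.07 and 2.16 in WT fat. No STAT5-deficient array reached the lowest STAT5-competent one, 569 replicate 3. Igfals fell by 1.70 ± 0.17 with 15 arrays (adjusted p = 0.0084) and by 1.81 ± 0.17 with 14 (adjusted p = 0.00088, limma). Liver makes much of the body's Igfals, and hepatocyte markers were high in WT replicate 2 (Igfals ratio 4.07) and in Box1 replicate 2 (0.58). Without these 2 arrays and 569 replicate 3 the difference was −1.64 (adjusted p = 0.0015).

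STAT5 binds palindromes of the form TTCNNNGAA, so the promoter windows of Igfals, Slc1a3 and Cish are shown with these matches in capitals. Each runs from 250 bases before to 50 after the gene's start, read 5′ to 3′ on the gene's strand from RefSeq, build GRCm38.p6. The Igfals window is 1 of 3 in RefSeq, at chr17:24877981-24878280 on the plus strand. The Slc1a3 window lies at chr15:8710758-8711057 on the minus strand and the Cish window at chr9:107296409-107296708 on the plus strand.
Igfals: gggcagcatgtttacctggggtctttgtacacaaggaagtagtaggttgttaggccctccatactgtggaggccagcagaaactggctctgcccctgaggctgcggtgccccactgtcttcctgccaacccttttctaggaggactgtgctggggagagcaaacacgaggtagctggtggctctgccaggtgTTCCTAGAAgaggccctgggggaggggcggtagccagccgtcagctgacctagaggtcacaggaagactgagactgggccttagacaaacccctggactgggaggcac
Slc1a3: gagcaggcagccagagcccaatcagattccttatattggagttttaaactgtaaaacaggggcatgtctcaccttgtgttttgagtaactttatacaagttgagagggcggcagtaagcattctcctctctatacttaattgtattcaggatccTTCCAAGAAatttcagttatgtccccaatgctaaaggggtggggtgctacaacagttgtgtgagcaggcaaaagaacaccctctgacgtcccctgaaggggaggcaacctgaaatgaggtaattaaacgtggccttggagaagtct
Cish: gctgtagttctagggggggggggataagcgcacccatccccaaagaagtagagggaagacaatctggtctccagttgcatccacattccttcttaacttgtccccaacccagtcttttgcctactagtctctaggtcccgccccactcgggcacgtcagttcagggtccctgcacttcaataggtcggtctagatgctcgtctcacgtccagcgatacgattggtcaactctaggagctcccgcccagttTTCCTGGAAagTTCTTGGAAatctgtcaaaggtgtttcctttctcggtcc
The match begins at position −58 from the start in Igfals and at −96 in Slc1a3, with the start as position 0. In Cish the 2 matches begin at 0 and 11. Another Igfals window, which starts further upstream, holds a match at −236. The remaining Igfals window and the Igf1 window hold none. Of the 40 genes called lower with a window, 6 (15%) had a match, against 9.55% of all 27025 genes with one and 0 of the 15 called higher. A match is a stretch of letters, and binding was not measured. Only windows with a match are printed above, and Cish was not called in either fit. No window was available for Sctr or Trp63.

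Other parts of the axis showed less. Igf1r, the receptor for IGF1, ran from 0.95 to 1.12 in STAT5-deficient arrays (median 1.06) and from 0.49 to 0.86 in STAT5-competent arrays (median 0.775). The classes did not overlap, the rise was small at 0.42 ± 0.07 with 14 arrays (adjusted p = 0.026 in limma), and the other 3 Igf1r probes were not called. The call was lost in 7 of 14 refits without a further array. With 15 arrays Igf1r was not called (0.53, adjusted p = 0.16). Over the list of growth hormone receptor signalling and the IGF axis, 2 of 25 measured genes fell with 14 arrays (Igf1 and Igfals) and 1 rose (Igf1r), with a list median of 0.08. Among the rest were Stat5a (0.31, adjusted p = 0.44), Stat5b (0.08, adjusted p = 0.81), Jak2 (0.30, adjusted p = 0.65) and Igfbp3, the main IGF carrier (0.58, adjusted p = 0.69), all with 14 arrays. With 15 they stood at 0.47, 0.08, 0.21 and 0.88, and none was called.

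Ghr, the gene mutated in these mice, has a pair of probes. Where they lie on the transcript is unknown here, and they may lie outside the altered part and so check no label. The more variable probe gave 0.46, 0.27 and 0.47 in 391 fat, 0.61, 0.44 and 1.13 in Box1 fat and 1.03, 0.68 and 1.26 in KO fat. It gave 1.04, 1.52 and 0.13 in 569 fat and 1, 2.05 and 1.64 in WT fat. The KO arrays were not the lowest and the classes overlapped. The difference was −1.12 with 14 arrays (adjusted p = 0.14) and −0.58 with 15 (adjusted p = 0.74), and for the other probe −1.07 (adjusted p = 0.34) with 14.

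Classical STAT5 targets were largely not called. Cish, a feedback inhibitor of cytokine signalling, had ratios of 0.48 to 1.34 in STAT5-deficient fat (median 0.79) and of 1 to 5.93 in STAT5-competent fat (median 2.92). It was high in all 569 arrays (5.93, 2.36 and 3.48) and in WT replicate 3 (5.69), while WT replicates 1 and 2 (1.32 and 1) lay within the STAT5-deficient range. The difference of −1.81 ± 0.41 with 14 arrays (adjusted p = 0.13) and of −1.79 ± 0.38 with 15 (adjusted p = 0.2) was as large as that of Igfals but did not pass the test. Socs2, another feedback inhibitor, stood at −0.40 (adjusted p = 0.71) and Socs3 at −0.63 (adjusted p = 0.29) with 14 arrays. With 15 they stood at −0.12 (adjusted p = 0.93) and −0.37 (adjusted p = 0.71). Of the 16 measured STAT5-induced genes only Igf1 was called with 14 arrays, and the list median was 0.13.

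**Figure D2:**
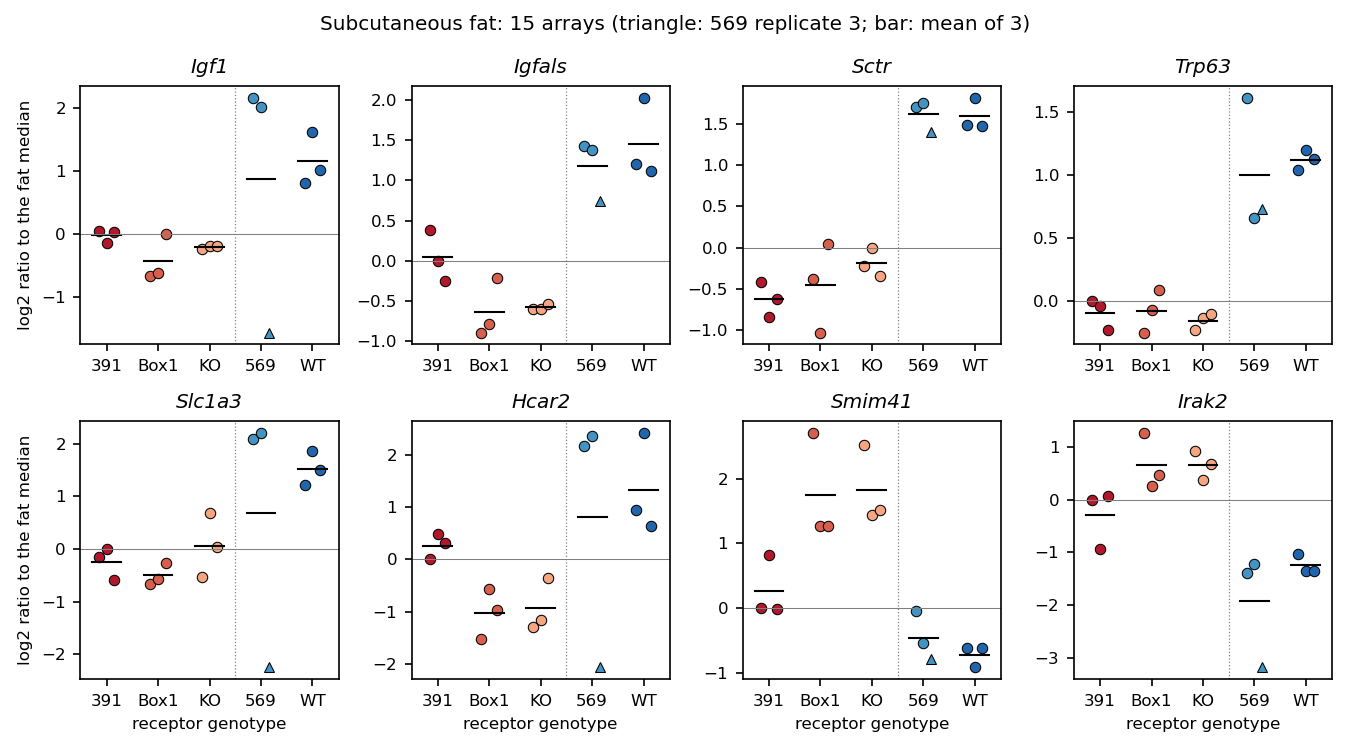
Log2 ratio to the fat median (vertical axis) of 8 genes in the 15 fat arrays by receptor genotype, with a bar at the mean of 3 arrays and a triangle for 569 replicate 3. Igfals, Sctr, Trp63, Smim41 and Irak2 separate the 9 STAT5-deficient arrays from all 6 others, whereas Igf1, Slc1a3 and Hcar2 do so only when the triangle is set aside.

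Outside the axis, Sctr differed most firmly. It encodes the receptor for secretin, a gut hormone whose receptor couples to cyclic AMP. Sctr ratios were 0.75, 0.56 and 0.65 in 391 fat, 0.77, 0.49 and 1.03 in Box1 fat and 0.86, 1 and 0.79 in KO fat. They were 3.26, 3.37 and 2.65 in 569 fat and 2.8, 3.52 and 2.78 in WT fat. Every STAT5-competent array, 569 replicate 3 included, lay more than 2-fold above every STAT5-deficient one. Sctr fell by 2.03 ± 0.14 with 15 arrays, or 4.08-fold (adjusted p = 0.00031), and by 2.08 ± 0.15 with 14 (adjusted p = 0.00027, limma). It was called in all 31 alternatives to the fit of 15 arrays, with differences from −2.49 to −1.88.

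Trp63 encodes p63, a transcription factor best known from the basal layer of stratified epithelia. Its ratios ran from 0.84 to 1.06 in STAT5-deficient fat (median 0.93), whereas STAT5-competent fat gave 1.58 to 3.06 (median 2.12). The classes did not overlap, and Trp63 fell by 1.17 ± 0.13 with 15 arrays (adjusted p = 0.012) and by 1.24 ± 0.13 with 14 (adjusted p = 0.0025). With 15 arrays the call was lost without 391 replicate 3 or WT replicate 1; with 14 it was lost in no refit. The other Trp63 probe was not called (0.05 with 14 arrays, adjusted p = 0.88). None of 19 epithelial and skin markers was called, with Krt5 at −0.01 and Krt14 at −0.49 with 14 arrays, and their mean ranged from −0.08 to 0.03 in STAT5-deficient and from −0.03 to 0.43 in STAT5-competent arrays; its part in the Trp63 value was not tested.

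Pttg1, which encodes securin, a regulator of chromosome separation, was lowest in the 391 arrays. Its ratios were 0.35, 0.31 and 0.28 in 391 fat, against 0.85 to 1.09 in Box1 and KO fat, 1.35, 1.15 and 1.57 in 569 fat and 1.17, 1.34 and 0.87 in WT fat. The fall of 0.89 ± 0.11 with 15 arrays (adjusted p = 0.024) rested mainly on the 391 arrays, and a moderated F test among 391, Box1 and KO was passed too (adjusted p = 0.01). With 15 arrays the call was lost in 7 of 15 refits without 1 array. With Box1 alone as the STAT5-deficient class the difference of Pttg1 was −0.40 (adjusted p = 0.67) with 15 arrays.

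Esr1, the oestrogen receptor alpha gene, ran from 0.41 to 1.02 in STAT5-deficient fat (median 0.84) and from 1.11 to 2.44 in STAT5-competent fat (median 1.99). The ranges did not overlap. Esr1 fell by 1.39 ± 0.21 with 14 arrays (adjusted p = 0.022), while 15 arrays gave −1.27 (adjusted p = 0.12), and none of its other 3 probes was called. Without 569 replicate 1 as well Esr1 was at −1.38 (adjusted p = 0.14), and the call was lost in 4 of 14 such refits. Rab9b, a small GTPase gene, showed smaller and cleanly separated ratios of 0.85 to 1.07 in STAT5-deficient and 1.18 to 1.82 in STAT5-competent fat. It fell by 0.65 ± 0.10 with 14 arrays (adjusted p = 0.029), a call lost in 7 of 14 refits without a further array.

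Hcar1, Hcar2 and Ffar2 were lower in STAT5-deficient fat without 569 replicate 3 and were not called with it. Hcar1 (lactate) and Hcar2 (the ketone body 3-hydroxybutyrate and niacin) encode adipocyte receptors that restrain lipolysis, and Ffar2 encodes a receptor for short-chain fatty acids. Hcar2 ratios were 1, 1.4 and 1.24 in 391 fat, 0.35, 0.68 and 0.51 in Box1 fat and 0.41, 0.45 and 0.78 in KO fat, against 4.46, 5.09 and 0.24 in 569 fat and 1.92, 5.36 and 1.56 in WT fat. Within the STAT5-deficient class the 391 arrays were the highest, and 569 replicate 3 was the lowest of all. Without it Hcar2 fell by 2.35 ± 0.28 or 5.11-fold (adjusted p = 0.0063), and with it the difference was −1.64 (adjusted p = 0.43). Hcar1 ran from 0.32 to 1.25 in STAT5-deficient arrays (median 0.66), against 1.95 to 4.45 in the 5 STAT5-competent arrays other than 569 replicate 3, which stood at 0.29. It fell by 2.13 ± 0.25 with 14 arrays (adjusted p = 0.006). Ffar2 ran from 0.32 to 1.44 in STAT5-deficient and from 1.8 to 3.87 in the same 5 STAT5-competent arrays. It fell by 1.95 ± 0.31 (adjusted p = 0.026 in limma) with 14 arrays, and neither Hcar1 (−1.54, adjusted p = 0.37) nor Ffar2 (−1.12, adjusted p = 0.65) was called with 15. Without 569 replicate 1 as well, Hcar2 was at −2.40 (adjusted p = 0.053) and Ffar2 at −2.03 (adjusted p = 0.14); the Hcar1 call held in all 14 such refits, the Ffar2 call was lost in 5.

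These were the only called members of the lipolysis list. Of 16 measured genes 2 fell with 14 arrays and none rose, with a median of −0.17. With 15 arrays the median was 0.34 and none was called. With 14 arrays the hormone-sensitive lipase gene Lipe stood at 0.42 (adjusted p = 0.59) and Abhd5, the co-activator of adipose triglyceride lipase, at −0.51 (adjusted p = 0.28). The most variable probe of Pnpla2, the gene of that lipase, was at −0.42 (adjusted p = 0.38), while another of its 4 probes fell by 0.50 (adjusted p = 0.042); that probe was chosen after its values were seen. Without all 4 arrays high in muscle markers, Hcar1 was at −2.25 (adjusted p = 0.12) and Hcar2 at −2.37 (adjusted p = 0.17).

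Slc1a3, a glutamate and aspartate transporter gene, had ratios from 0.63 to 1.6 in STAT5-deficient fat (median 0.83). STAT5-competent fat gave 4.27, 4.64 and 0.21 in 569 and 2.31, 3.66 and 2.84 in WT. Only 569 replicate 3 crossed the gap between the classes. Slc1a3 fell by 2.07 ± 0.19 with 14 arrays, or 4.21-fold (adjusted p = 0.00081), and its second probe by 0.85 ± 0.08 (adjusted p = 0.00078). With 15 arrays the first was at −1.34 (adjusted p = 0.51). Prps1, an enzyme of nucleotide synthesis, fell by 1.52 ± 0.17 (adjusted p = 0.0038), Rgs7bp, a partner of G protein regulators, by 1.37 ± 0.16 (adjusted p = 0.0051), and Nabp1, a single-stranded DNA-binding protein, by 1.29 ± 0.17 (adjusted p = 0.012), all with 14 arrays and without overlap of the classes. Leaving out a further array lost no call for Prps1 or Rgs7bp, and lost that of Nabp1 without 569 replicate 1 or 2. With all 15 arrays these 3 genes stood at −1.21, −1.03 and −1.05 and were not called.

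Complement genes were also among those called with 14 arrays, and the list of them was drawn up after their values were seen. C4b, C4a, C2 and Cfb are neighbours in the complement cluster of chromosome 17, and C4b, C2 and Cfb encode parts of the enzymes that split C3. C4b ratios ran from 0.55 to 1.21 in STAT5-deficient fat (median 0.81). They were 2.36, 2.61 and 0.15 in 569 fat and 1.32, 2.06 and 2.28 in WT fat, so again only 569 replicate 3 fell below the gap. With 14 arrays C4b fell by 1.35 ± 0.15 (adjusted p = 0.0048), and all 4 of its probes were called. C2 fell by 1.16 ± 0.15 (adjusted p = 0.0098), Cfb, complement factor B, by 1.11 ± 0.18 (adjusted p = 0.035) and C4a by 1.25 ± 0.17 (adjusted p = 0.012). With 15 arrays none of the 4 was called, with C4b at −0.68 (adjusted p = 0.73). The C4b call held in all 14 refits without a further array, while that of Cfb was lost in 11, that of C4a in 2 (569 replicates 1 and 2) and that of C2 in 1 (569 replicate 1). C4a and C4b are near-identical copies, so which of them a probe measured is uncertain. Of the 18 measured complement genes these 4 fell and none rose with 14 arrays, with a median of −0.18, whereas the median with 15 was 0.05 and none was called. Not called with 14 arrays were C6 (−0.61, adjusted p = 0.075) and C1qa, a macrophage product (−0.36, adjusted p = 0.48).

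No gene of the mature adipocyte list was called. Adipoq, the adiponectin gene, ran from 0.86 to 1.08 in STAT5-deficient fat (median 0.94) and from 1 to 1.2 in STAT5-competent fat other than 569 replicate 3, which stood at 0.21. The difference was −0.17 ± 0.07 with 14 arrays (adjusted p = 0.46) and 0.21 with 15 (adjusted p = 0.86). The 23 mature adipocyte genes ran from −0.78 to 0.83 with 14 arrays, with a median of −0.03, and their median was 0.43 with 15. Fabp4, a fatty acid carrier, was at −0.78 (adjusted p = 0.16) with 14 arrays and at −0.48 (adjusted p = 0.64) with 15. Plin1, which coats lipid droplets, was at 0.13 (adjusted p = 0.9) with 14 and at 0.65 (adjusted p = 0.67) with 15. Lep, the gene of the satiety hormone leptin, ran from 0.29 to 2.29 in STAT5-deficient fat (median 1.49) and from 0.2 to 0.84 in STAT5-competent fat (median 0.475). Of the 9 STAT5-deficient arrays 8 lay above all STAT5-competent ones, and 391 replicate 2, at 0.29, did not. The difference was 1.53 ± 0.37 with 15 arrays (adjusted p = 0.25) and 1.39 ± 0.39 with 14 (adjusted p = 0.24). Without both 391 replicate 2 and 569 replicate 3, the difference was 1.68 (adjusted p = 0.0058), the only 1 of 30 alternatives to the fit of 14 arrays in which Lep was called (adjusted p up to 0.67). That refit leaves out the array that lay apart.

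Among 18 adipocyte transcription factors only Tle3 was called. Tle3 encodes a co-regulator that in mouse adipocytes works with PPARG. It ran from 0.79 to 1.98 in STAT5-deficient fat (median 1.17) and from 0.28 to 0.93 in STAT5-competent fat (median 0.63), with overlap. Tle3 rose by 0.89 ± 0.14 with 14 arrays (adjusted p = 0.028), a second of its 3 probes rose by 0.82 (adjusted p = 0.037), and 15 arrays gave 1.14 (adjusted p = 0.18). The call of Tle3 was lost in 7 of 14 refits without a further array. The most variable probe of Pparg itself was at −0.04 with 14 arrays (adjusted p = 0.97) and at 0.60 with 15 (adjusted p = 0.75). Another of its 3 probes, named here after its values were seen, had ratios of 1.29, 1 and 1.11 in 391 fat, 0.54, 0.6 and 0.64 in Box1 fat and 0.73, 0.7 and 0.62 in KO fat. In STAT5-competent fat it gave 1.76, 1.73 and 0.53 in 569 and 1, 1.17 and 1.43 in WT. That probe fell by 0.90 ± 0.09 with 14 arrays (adjusted p = 0.0022), so the Pparg probes disagree.

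With 14 arrays 1 insulin signalling gene, 3 matrix genes and 1 macrophage gene were called. Pik3r1, the regulatory subunit p85 alpha of PI 3-kinase, ran from 0.64 to 1.07 in STAT5-deficient and from 1.13 to 2.52 in STAT5-competent arrays other than 569 replicate 3 (0.3). It fell by 1.07 ± 0.17 (adjusted p = 0.025), the only call among 23 insulin signalling genes (median −0.03, and 0.09 with 15 arrays), and its other 3 probes were not called. Irs3, an insulin receptor substrate, was at 1.04 with 14 arrays (adjusted p = 0.055).

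Of 34 collagen and matrix genes Col1a2, a chain of type I collagen, and Mmp3, stromelysin, fell and Thbs2, thrombospondin 2, rose with 14 arrays. The list median was −0.14 with 14 arrays and 0.11 with 15. Col1a2 differed by −1.12 ± 0.18 (adjusted p = 0.03) and Mmp3 by −1.06 ± 0.18 (adjusted p = 0.041), both with 14 arrays. These 2 calls leaned on 569 fat. Mmp3 stood at 4.72 and 3.4 in 569 replicates 1 and 2, whereas WT fat, at 0.94, 1.18 and 1.01, lay inside the STAT5-deficient range of 0.53 to 1.46. The same held for Clec10a, a macrophage lectin, at 3.47 and 2.61 in those 569 arrays against 0.88, 1.09 and 1.11 in WT fat and 0.53 to 1.11 in STAT5-deficient fat. Clec10a was the only call among 23 macrophage markers (−0.94 ± 0.17, adjusted p = 0.045, list median −0.27 with 14 arrays and 0.15 with 15). Thbs2 was high in Box1 fat (4.9, 1.84 and 2.11) and KO fat (3.33, 3.67 and 3.12) and not in 391 fat (1.11, 0.52 and 0.68), against 0.1 to 1 in STAT5-competent fat. Its rise was 1.42 ± 0.23 with 14 arrays (adjusted p = 0.028). With all 15 arrays Pik3r1, Col1a2, Mmp3, Clec10a and Thbs2 were not called. With 14, leaving out a further array lost the call of Pik3r1 in 5 of 14 refits, of Col1a2 and Thbs2 in 9, of Mmp3 in 11 and of Clec10a in 12.

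**Figure D3:**
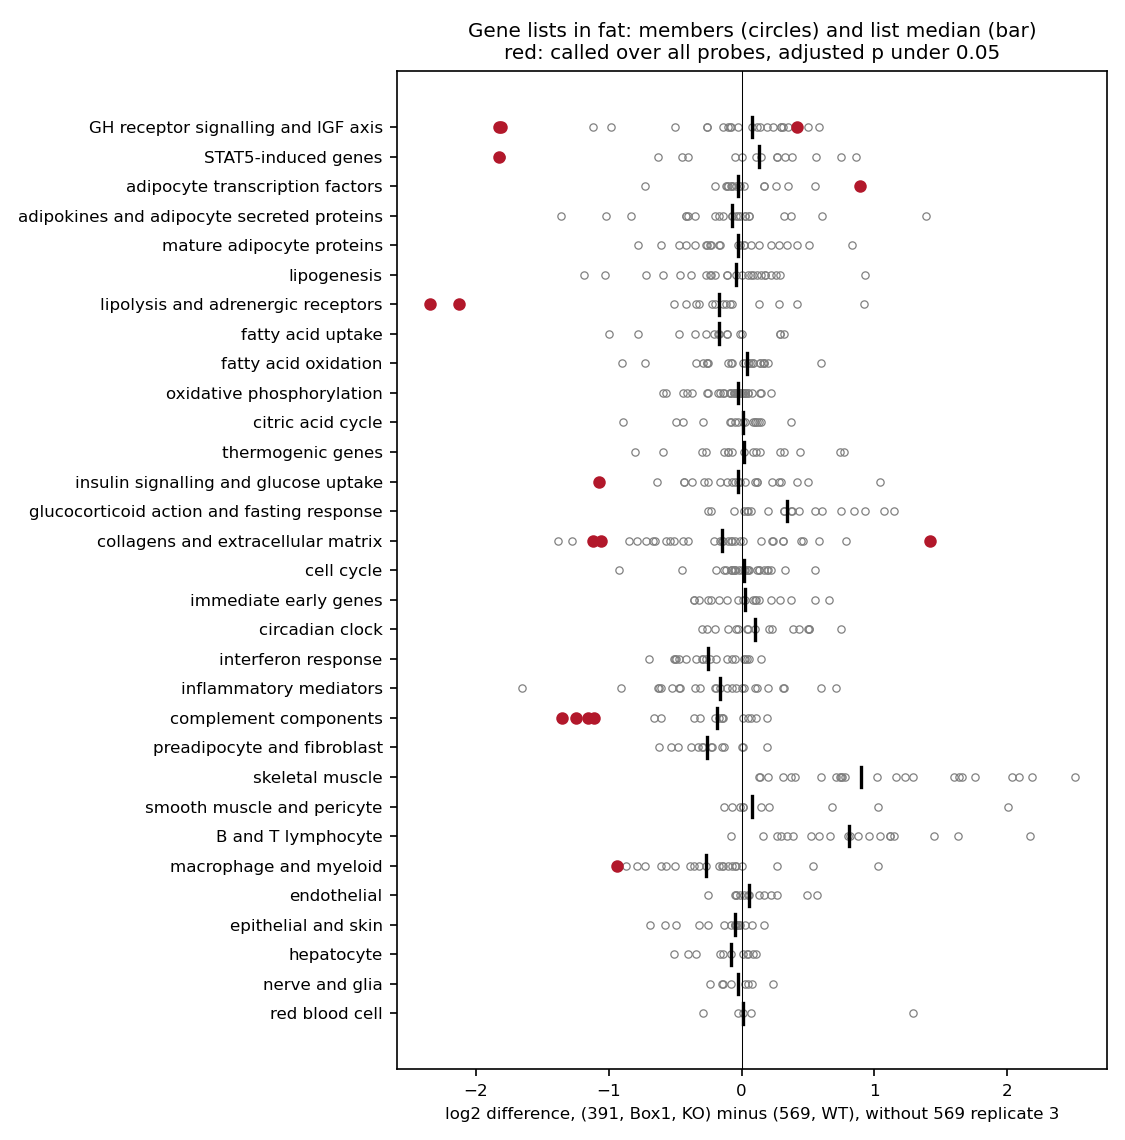
Log2 difference between STAT5-deficient and STAT5-competent fat without 569 replicate 3 (horizontal axis) for each measured member (circle) of 31 gene lists (rows), with a bar at the list median and red for called members. Called members are few in every list, while the muscle and lymphocyte markers lie to the right, with medians of 0.9 and 0.81 and no call.

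Genes higher in STAT5-deficient fat were fewer than lower ones with 14 arrays, but not with 15, where 5 probes were higher and 4 lower. With 14 arrays less 391 replicate 2 they were not fewer either, at 145 probes higher and 107 lower. Smim41, a small membrane protein gene, had ratios of 1, 1.76 and 0.99 in 391 fat, 6.56, 2.42 and 2.42 in Box1 fat and 5.75, 2.71 and 2.85 in KO fat, against 0.53 to 0.97 in STAT5-competent fat. Box1 and KO arrays were the highest, and 391 arrays only just cleared 569 replicate 1. Smim41 rose by 1.87 ± 0.26 with 15 arrays (adjusted p = 0.049) and by 1.79 ± 0.27 with 14 (adjusted p = 0.024). Irak2, a kinase of interleukin-1 and Toll-like receptor signalling, ran from 0.52 to 2.42 in STAT5-deficient fat and from 0.11 to 0.49 in STAT5-competent fat without overlap. It rose by 1.62 ± 0.20 with 14 arrays (adjusted p = 0.0078), and with 15 the difference was 1.94 (adjusted p = 0.07). Without 569 replicate 1 as well it was at 1.58 (adjusted p = 0.08). The other Irak2 probe was not called (0.75 with 14 arrays, adjusted p = 0.17).

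Hhip, which binds and holds back hedgehog ligands, ran from 0.98 to 1.65 in STAT5-deficient fat (median 1.19) and from 0.59 to 0.8 in STAT5-competent fat (median 0.64). It rose by 0.86 ± 0.11 with 15 arrays (adjusted p = 0.03) and by 0.88 ± 0.12 with 14 (adjusted p = 0.012), while its other probe was not called. Ehd3, a gene of endocytic recycling, rose by 0.95 ± 0.12 with 15 arrays (adjusted p = 0.033), with a slight overlap of 0.87 in 391 replicate 2 and 0.91 in WT replicate 1. Susd4, a sushi-domain membrane protein gene, ran from 0.91 to 1.6 in STAT5-deficient and from 0.55 to 0.81 in STAT5-competent fat. Susd4 rose by 0.81 ± 0.11 with 15 arrays (adjusted p = 0.036), and its second probe was not called. With 14 arrays Cpne9, a copine gene, rose by 1.02 ± 0.17 (adjusted p = 0.037), Cyria by 0.90 ± 0.13 (adjusted p = 0.018), Azin2, an antizyme inhibitor, by 0.78 ± 0.12 (adjusted p = 0.028) and Aard by 0.66 ± 0.12 (adjusted p = 0.044). Cpne9 and Aard were high in Box1 and KO fat and not in 391 fat, where they ran from 0.77 to 1.06, and the classes overlapped for all 4 of these genes. With 15 arrays, leaving out 1 array lost that of Smim41 in 12 of 15 refits, of Hhip and Ehd3 in 11 and of Susd4 in 10. With 14 arrays it lost that of Aard in 11 of 14, of Cpne9 in 10, of Azin2 in 9, of Smim41 in 4 and of Cyria in 3.

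**Figure D4:**
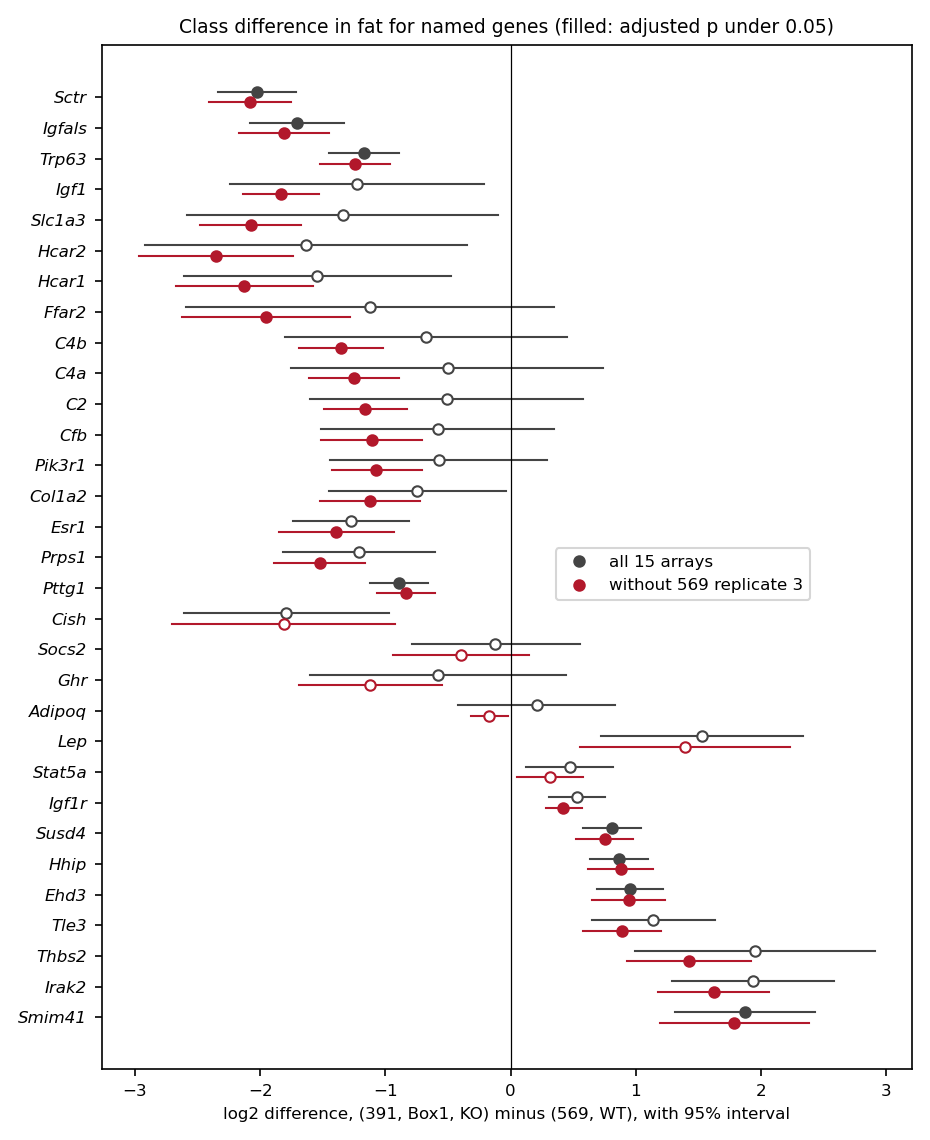
Fitted log2 difference of STAT5-deficient minus STAT5-competent fat with its 95% interval (horizontal axis) for 31 named genes (rows), with all 15 arrays in grey and without 569 replicate 3 in red; filled points were called. Intervals of Sctr, Igfals and Trp63 are narrow in both fits, whereas those of Igf1, Slc1a3 and the complement genes narrow only without 569 replicate 3.

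Differences inside the classes were few. Between 569 and WT, which share a slide, no probe was called in limma (0% of 46643), although 4178 had an unadjusted p under 0.05. Igf1 differed by −0.28 (adjusted p = 0.93), Igfals by −0.27 (adjusted p = 0.78) and Sctr by 0.03 (adjusted p = 0.98). A p that misses the threshold does not show that the genotypes are alike. Among 391, Box1 and KO the moderated F test called 7 probes (0.015%), 2 of them unnamed. The 5 named genes were Pttg1, Abca5, Adat2, Gdi2 and Thg1l, and all but Pttg1 are named here because of these values. In each of the 5 the 391 arrays stood apart from Box1 and KO. Gdi2, a regulator of Rab GTPases, was at 0.15, 0.09 and 0.1 in 391 fat and at 0.95 to 1.26 in Box1 and KO fat. Adat2, a tRNA-editing enzyme gene, was at 2.59, 1.91 and 1.9 in 391 fat and at 0.74 to 1.06 in Box1 and KO fat. Without 391 replicate 1 or 391 replicate 2 the F test called 0 probes, and without 569 replicate 3 it called 17.

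The class difference itself differed between fat and liver for 404 probes (0.866%) in an interaction test over 30 arrays, and for 1060 without 569 replicate 3. That fit pools the residual spread of both tissues for each probe. The liver SEs given here therefore also hold the variation of fat arrays, 569 replicate 3 included. The Igf1 difference was −1.23 in fat and −4.73 ± 0.35 in liver, and these differ by 3.5 (SE 0.50, adjusted p = 0.00028, limma). Igfals gave −1.70 in fat and −3.66 ± 0.17 in liver (adjusted p = 3.2e-05 for the difference). Socs2 gave −0.12 in fat and −2.41 in liver (adjusted p = 0.0098), whereas Cish gave −1.79 in fat and −1.74 in liver, a difference of −0.05 ± 0.50 (adjusted p = 0.99). Susd4 turned round between the tissues, at 0.81 in fat and −2.89 ± 0.13 in liver, 3.70 ± 0.18 apart (adjusted p = 3e-12).

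Several fat differences were near 0 in liver. Sctr gave −2.03 in fat and −0.03 ± 0.11 in liver (adjusted p = 1.7e-08 for the difference). The interaction was also called for Trp63 (−1.17 in fat, −0.07 in liver, adjusted p = 0.00014), Esr1 (−1.27 and 0.08, adjusted p = 0.0075), Smim41 (1.87 and 0, adjusted p = 0.0004), Hhip (0.86 and 0.06, adjusted p = 0.002) and Irak2 (1.94 and 0.48, adjusted p = 0.032). For Slc1a3, Hcar1, Hcar2 and C4b it was called only without 569 replicate 3, with adjusted p-values of 1.2e-06, 3.3e-05, 1.9e-05 and 0.0007. Since a ratio holds no level, a gene silent in liver cannot be told from a steady one.

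**Figure D5:**
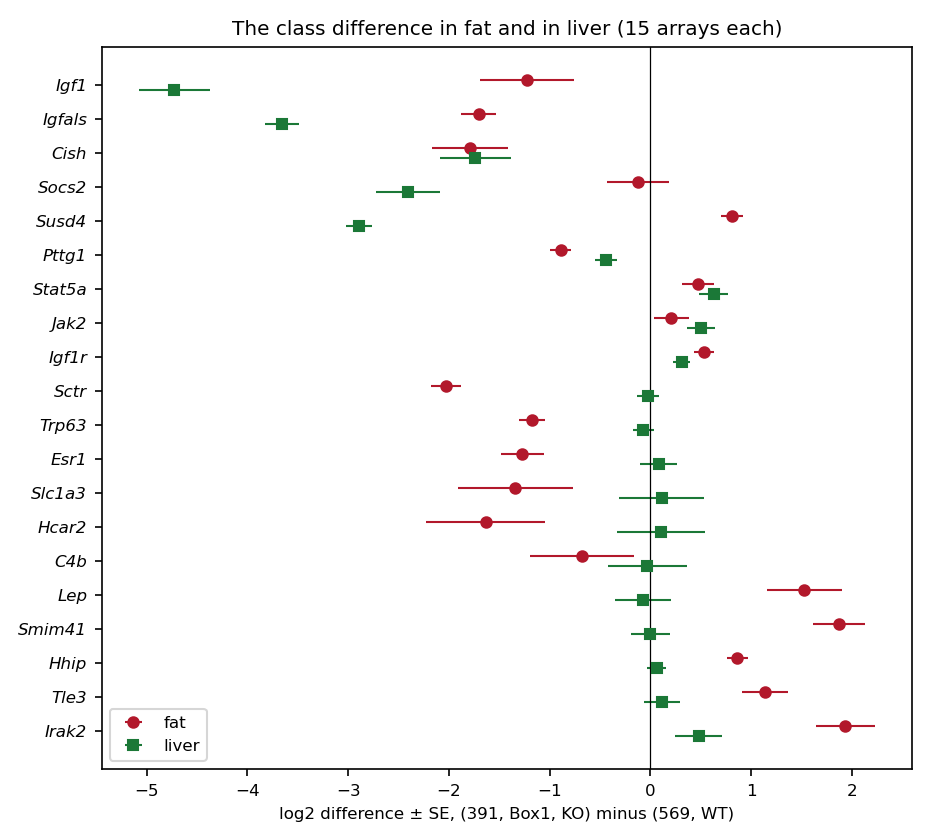
Fitted log2 difference ± SE of STAT5-deficient minus STAT5-competent arrays (horizontal axis) for 20 named genes (rows) in fat (circles) and liver (squares), 15 arrays each. Igf1, Igfals, Socs2 and Susd4 lie far lower in liver, Cish lies at the same place in both, and Sctr, Trp63, Smim41 and Hhip differ from 0 in fat and lie near 0 in liver.

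The other gene lists had no called member with 14 or with 15 arrays. With 14 arrays the median difference was −0.04 over 25 lipogenesis genes, −0.17 over 15 fatty acid uptake genes, 0.04 over 24 fatty acid oxidation genes and −0.03 over 37 genes of oxidative phosphorylation. It was 0.01 over 17 citric acid cycle genes, 0.02 over 17 thermogenic genes, −0.07 over 23 adipokines and secreted proteins, 0.02 over 27 cell cycle genes, 0.03 over 19 immediate early genes and 0.1 over 17 clock genes. Immune lists gave −0.25 over 20 interferon response genes and −0.16 over 25 inflammatory mediators, among them the chemokine Ccl7 at −1.65 (adjusted p = 0.059). Remaining cell type markers gave −0.26 over 14 preadipocyte and fibroblast genes, 0.08 over 10 smooth muscle genes, 0.05 over 14 endothelial genes, −0.08 over 11 hepatocyte genes, −0.02 over 8 nerve genes and 0.01 over 5 red blood cell genes, and 0.9 and 0.81 over the muscle and lymphocyte markers. Among these lists the sign of the median was the opposite with 15 arrays for lipogenesis (0.13), adipokines (0.1), nerve (0.05), citric acid cycle (−0.02) and thermogenic genes (−0.08).

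The lead genes were also fitted with those marker means. With the lymphocyte mean as a covariate and 14 arrays, Igf1 was at −1.69 (adjusted p = 3.9e-05), Igfals at −1.67 (adjusted p = 0.00052), Sctr at −1.96 (adjusted p = 0.00012), Trp63 at −1.20 (adjusted p = 0.0057) and Slc1a3 at −1.90 (adjusted p = 0.00025). With 15 arrays Trp63 was no longer called with that covariate (−1.13, adjusted p = 0.056) or without the arrays high in hepatocyte markers (−1.15, adjusted p = 0.089). Without the 4 arrays high in muscle markers only 7 probes were called, all lower and all among the 121. They were Slc1a3 (−2.25), Sctr (−2.21), Igf1 (−1.87), Igfals (−1.86), Trp63 (−1.03) and 2 unnamed probes. These settings were chosen after the values were seen. With those 4 arrays left out, 569 replicate 2 was the only 569 array. The parts of muscle content and of fewer arrays in the lower count were not tested.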

How the data were processed

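The authors deposited ratios. In fat every one of the 46643 probes has a median of exactly 1 across the 15 arrays, so each value was read as relative to that median, with 2 decimals and a lowest value of 0.01. Per the labels' protocols, column-purified total RNA was biotin-labelled for hybridisation to Illumina bead arrays; no source used here names the background correction or normalization. Signal over background is unknown, and the number of arrays, 3 per genotype, limits the precision.

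Ratios were taken to log2 with no offset and fitted with limma 3.58.1 in R 4.3.3 (lmFit, contrasts.fit, eBayes), 1 mean per genotype, with the contrast of the mean of 391, Box1 and KO minus the mean of 569 and WT. Tests were two-sided, adjusted by Benjamini-Hochberg over all 46643 probes and called at an adjusted p under 0.05. The platform annotation gave 1 symbol to 32794 probes, several to 55 and none to 13794. A gene is represented by its probe with the largest SD over the fat arrays. On simulated data for the 15 fat arrays and 46643 probes, 81% of 200 probes changed 2-fold and 97% of 200 changed 4-fold were recovered. False calls numbered 8 and 7. The noise was normal, with the same SD in all arrays and no slide effect, and changed probes were not drawn from the least variable ones. No array with wide ratios, such as 569 replicate 3, was simulated, so these shares do not give the recovery in the real data.

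The members and the 30 gene lists were chosen with earlier results of these data known. Named genes were 12 fixed ones, up to 15 called genes each way with the largest difference whose classes do not overlap (filled up to 10 each way by lowest p where fewer were called), up to 4 members of each list with called ones first, and up to 4 genes each way with the largest fat minus liver difference. Alternatives were leaving out each array, quantile normalization, centring, array weights, an offset of 0.1, leaving out probes with a ratio of 0.05 or lower, robust eBayes, 2 class means, slide as a random block, single genotypes, marker means as covariates, and leaving out arrays high in muscle or hepatocyte markers.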

Additional observations from a re-analysis of the deposited data

Results flagged for a closer look

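Single arrays stood far from the rest of their class for a set of named genes, and chance alone picks out about 1 in 20 such groups. That rate does not cover Hcar1, Slc1a3, Ffar2, Rgs7bp, C4b, C4a and C2 in 569 replicate 3. These genes were named because their classes separated without that array. Nor does the rate cover Cfb, Cyria and Thbs2 there, which were named only through the fit without that array. In 569 replicate 3 the ratios were 0.13 for Ghr, 0.34 for Igf1, 0.21 for Adipoq, 0.11 for Irak2, 0.13 for Cyria, 0.1 for Thbs2, 0.29 for Hcar1, 0.21 for Slc1a3, 0.1 for Ffar2, 0.54 for Rgs7bp, 0.15 for C4b, 0.1 for C4a, 0.16 for C2 and 0.23 for Cfb, each below the other 5 STAT5-competent arrays. In 391 replicate 2 Lep, at 0.29, and Wfdc21, at 0.41, lay below the other 8 STAT5-deficient arrays. Hhip was highest among STAT5-competent arrays in WT replicate 2, at 0.8, and Rbm10 in 569 replicate 2, at 1.11.

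Liver-enriched genes were high in the arrays that were also high in hepatocyte markers. Box1 replicate 2 had ratios of 46.39 for Hamp2, 17.39 for Sult2a2, 3.76 for Cyp2b13 and 2.9 for Spink1. WT replicate 2 had 5.55 for Hamp2 and 3.96 for Sult2a2.

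The class difference differed between fat and liver by the interaction test for the named genes below, given as fat minus liver on the log2 scale. Higher in fat were Serpina1e (6.59), Cyp4a12a (5.6), Cyp4a12b (5.03), Wfdc21 (4.92), Susd4 (3.7), Igf1 (3.5), Socs2 (2.29), Igfals (1.96), Smim41 (1.87), Irak2 (1.45), Cpne9 (1.05), Tle3 (1.02), Pabpc1l (0.995), Hhip (0.802), Aard (0.711) and Azin2 (0.626). Lower in fat were Sult2a2 (−6.54), Cyp2b13 (−4.78), Hamp2 (−4.75), Spink1 (−4.6), Sctr (−2), Prps1 (−1.6), Esr1 (−1.36), Nabp1 (−1.13), Aebp1 (−1.11), Trp63 (−1.1), 4933434E20Rik (−0.676) and Rab9b (−0.58). None of the first 4 in each direction was called in fat. Serpina1e, for example, gave −0.43 in fat and −7.02 in liver. Cyp4a12a and Cyp4a12b are near-identical copies and their probes may not tell them apart.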

How the results depend on the processing

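No paired analysis was possible because the labels carry no replicate numbers. The count of 9 called probes with 15 arrays ran from 2 to 121 when 1 array was left out. It was 32 with quantile normalization, 48 with array weights, 14 with an offset, 30 with the muscle mean and 3 with the lymphocyte mean as a covariate, and 3 without the arrays high in hepatocyte markers. With 391 and KO only it was 5, with Box1 only 2, against WT only 2 and against 569 only 1. The count of 121 without 569 replicate 3 ran from 23 to 252 when a further array was left out. It was 58 with 2 class means, 185 with array weights, 195 with the lymphocyte mean as a covariate, 7 without all arrays high in muscle markers and 188 without those high in hepatocyte markers. With 391 and KO only it was 63, with Box1 only 23, against WT only 10 and against 569 only 102. Slide as a random block together with 2 class means gave 5019 and 1344 probes, against 9 and 58 with 2 class means alone; its estimated correlation was negative (−0.124 and −0.105), which by construction narrows the standard error of the class difference. The 0 probes between 569 and WT ran from 0 to 6, and the 7 among 391, Box1 and KO from 0 to 17, with 49 under quantile normalization. The 404 interaction probes became 1060 without 569 replicate 3. Of the single gene values refitted, 99 with 15 arrays and 350 with 14 lost their call, 93 and 16 gained one, and 4 and 1 moved by more than the spread. No called value changed sign, while some uncalled values did, with 15 arrays among them Ghr (−1.34 to 0.09), Socs2 (−0.47 to 0.22) and Adipoq (−0.23 to 0.65). With 14 arrays, against WT only, Hcar1 (−1.95, adjusted p = 0.053), Hcar2 (−1.90, adjusted p = 0.11) and C4b (−1.14, adjusted p = 0.069) were no longer called. Of the called genes followed through these alternatives, only Igf1, Igfals, Sctr, Trp63 and Slc1a3 kept their call against WT only. The causes of these shifts were not tested. No absolute signal remains in a ratio, so dim probes could not be left out.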

Other observations

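Genes of the fasting response and of the action of glucocorticoids, the adrenal steroids that rise in fasting, had a list median above 0 without a call. The mean log2 ratio of 20 such genes was −0.19, −0.38 and −0.37 in 391 fat, 0.93, −0.24 and 0.35 in Box1 fat and 0.63, 0.78 and 0.48 in KO fat. It was 0.37, 0.06 and −1.59 in 569 fat and −0.59, −0.35 and −0.66 in WT fat. All Box1 and KO arrays thus lay above every WT array, whereas 391 replicates 2 and 3 lay within the WT range and 569 replicates 1 and 2 lay above all 391 and WT arrays. The list median was 0.35 with 14 arrays and 0.69 with 15, and none of the 20 genes was called.

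Tsc22d3, a glucocorticoid-induced leucine zipper gene, had ratios of 1.12, 0.66 and 1.03 in 391 fat, 2.64, 0.68 and 1.53 in Box1 fat and 2.31, 2.6 and 1.42 in KO fat, against 1, 0.93 and 0.53 in 569 fat and 0.35, 0.36 and 0.51 in WT fat. Its difference was 1.15 ± 0.28 with 14 arrays (adjusted p = 0.17 in limma). Fkbp5, a chaperone of the glucocorticoid receptor, had 0.97, 0.87 and 0.49 in 391 fat, 3.38, 1.04 and 1.36 in Box1 fat and 2.67, 2.03 and 1.17 in KO fat, against 1, 1.08 and 0.39 in 569 fat and 0.35, 0.3 and 0.54 in WT fat. Its difference was 1.07 ± 0.30 (adjusted p = 0.24). For both genes WT arrays were the lowest or among the lowest, and the classes overlapped. For Tsc22d3, 391 replicate 2 and Box1 replicate 2 lay below 569 replicates 1 and 2. For Fkbp5, all 391 arrays and Box1 replicate 2 lay below 569 replicate 2.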
